A study of Mus musculus with 27 samples.

Results

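Integrins are cell surface receptors made of 1 alpha and 1 beta chain, and 8 of their genes are described here over 9 groups of mouse alveolar macrophages: Itgax, Itgam, Itgal, Itgb2, Itga4, Itga6, Itgb1 and Itgb7. They were taken by name, 8 of the 38124 genes in the deposited count table, for encoding the sort markers and the chains that pair with them on leukocytes. All 8 passed the filter on low counts. Itgax encodes CD11c and Itgam encodes CD11b, and cells were sorted on these proteins.

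Cells were washed from the lungs of C57B/6 mice aged 8 to 14 weeks by bronchoalveolar lavage, after 20 nanograms of lipopolysaccharide (LPS, a bacterial cell wall component) in 50 µL of PBS had been put into the trachea. Resident macrophages were the CD11c positive, CD11b negative cells of untreated mice (day 0) and of mice on days 3, 6, 9 and 12 after LPS. Recruited macrophages were the CD11c negative, CD11b positive cells of days 3, 6, 9 and 12. Each group had n = 3 libraries of polyadenylated RNA. No genetic change, tracer or transgene is named in the labels, so each population is set by its surface markers. Nothing in the labels ties a library to its own animal, so p-values may measure only a spread between samples that is technical.

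Totals ran from 11093216 to 18299674 counts per library (median 14859352). Of 12 resident macrophage marker genes, 11 had lower means in recruited than in resident groups on each of days 3, 6, 9 and 12, and Fabp5, a fatty acid binding protein gene, had higher ones. Their sum was 16854 to 34529 CPM (counts scaled to a common library size) in resident and 2564 to 10625 CPM in recruited libraries. Of 12 monocyte markers, 11 had higher means in recruited groups on each of those days, and Chil3, which is also in the resident list, had lower ones (2849 against 22982 CPM on day 3). The resident identity gene Siglecf averaged 193 to 521 CPM in resident groups and 5.31 to 61.8 in recruited groups, and the monocyte gene Ly6c2 averaged 0.0838 to 50.1 CPM and 25.5 to 1453. T cell receptor complex genes were near 0, with Cd3e at or below 1.03 CPM and Trac at or below 1.09 in each group mean, and 5 mast cell, basophil and eosinophil genes (Epx, Mcpt8, Fcer1a, Ms4a2, Tpsb2) had no count. A list of 14 neutrophil genes summed to 528 to 1095 CPM in recruited day 3 libraries and 117 to 140 CPM at day 0, with the defining gene Ly6g at 0.151 CPM or less. In sorted bulk RNA, fewer cells of a type and less RNA per cell cannot be told apart. Libraries numbered 12 to 18 in the header of the table of unassigned reads (resident day 9 replicate 2, resident day 12 replicate 1, recruited day 9 replicate 2 and recruited day 12 replicate 1) stood apart: Spp1, which encodes the integrin ligand osteopontin, was 3562, 3967, 12941 and 13431 CPM in them and at most 1756 CPM in the other libraries of their groups. Recruited day 6 replicate 3, numbered 51, is not counted among them. It held 3111 CPM of Spp1, against 512 and 729 in the others of its group. The sources used here give no meaning for the numbers, and results that change without these libraries are given with both values.

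As background, the beta 2 chain (Itgb2, CD18) pairs with an alpha chain on leukocytes to make LFA-1 (Itgal), Mac-1 or complement receptor 3 (Itgam) and complement receptor 4 (Itgax). These receptors bind ICAM proteins, Mac-1 and complement receptor 4 also bind the complement fragment iC3b, and they serve adhesion, migration and phagocytosis. The alpha 4 chain (Itga4) pairs with beta 1 (Itgb1) to bind VCAM-1 and fibronectin, or with beta 7 (Itgb7) to bind MAdCAM-1. The alpha 6 chain (Itga6) pairs with beta 1 or beta 4 to bind laminin.

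In GRCm38 coordinates with GENCODE release M21, all 8 genes are annotated as protein coding. Itgal (ENSMUSG00000030830, 127296260 to 127335138), Itgam (ENSMUSG00000030786, 128062640 to 128118491) and Itgax (ENSMUSG00000030789, 128129547 to 128150657) lie on the plus strand of chromosome 7. Itga6 (ENSMUSG00000027111, 71745616 to 71858416) and Itga4 (ENSMUSG00000027009, 79255426 to 79333123) are on chromosome 2, plus strand. Itgb2 (ENSMUSG00000000290) is on chromosome 10 at 77530252 to 77565708, Itgb1 (ENSMUSG00000025809) on chromosome 8 at 128685654 to 128733200, both plus strand, and Itgb7 (ENSMUSG00000001281) on chromosome 15 at 102215995 to 102231944, minus strand. Of the exon bases of Itgam, 3450 also belong to Gm49368 on the same strand, a gene that is not a row of the count table. In Itga4, 1124 exon bases overlap the antisense gene Cerkl. The sources used here do not give the strand setting of the counting.

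The start regions of the sort genes Itgax and Itgam and of Itgb7, the gene outside the gate that differed most between the populations, are shown because the results below turn on these genes. Each is 265 bases from RefSeq on GRCm38.p6, read 5′ to 3′ on the gene's strand and ending 15 bases after the annotated start, and 5 of the 8 genes had an entry. Capitals mark matches, on either strand, to GAGGAA (the core bound by the myeloid factor PU.1) or TGAGTCA (bound by AP-1). TTGCNNAA, a C/EBP motif, was also searched.
Itgax, chr7:128129300-128129564, plus strand: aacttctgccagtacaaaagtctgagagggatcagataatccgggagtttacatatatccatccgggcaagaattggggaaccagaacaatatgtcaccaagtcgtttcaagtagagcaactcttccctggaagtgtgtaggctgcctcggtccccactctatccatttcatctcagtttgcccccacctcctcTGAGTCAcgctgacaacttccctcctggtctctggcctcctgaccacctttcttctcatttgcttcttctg
Itgam, chr7:128062390-128062654, plus strand: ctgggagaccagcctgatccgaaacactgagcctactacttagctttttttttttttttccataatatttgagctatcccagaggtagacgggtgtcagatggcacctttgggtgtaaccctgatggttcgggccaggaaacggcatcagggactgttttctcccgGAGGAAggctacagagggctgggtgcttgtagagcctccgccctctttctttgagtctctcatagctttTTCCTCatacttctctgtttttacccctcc
Itgb7, chr15:102231921-102232185, minus strand: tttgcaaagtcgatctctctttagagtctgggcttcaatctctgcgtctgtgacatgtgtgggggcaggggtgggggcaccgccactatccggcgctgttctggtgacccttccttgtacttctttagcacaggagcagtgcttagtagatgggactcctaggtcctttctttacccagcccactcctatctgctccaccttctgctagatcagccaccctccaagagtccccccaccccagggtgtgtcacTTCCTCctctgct
The Itgax window held 1 TGAGTCA, 56 bases before the start. The Itgam window held GAGGAA 84 bases before the start and its reverse complement 15 bases before it. The Itgb7 window held the reverse complement of GAGGAA 3 bases after the start. Among 32851 RefSeq windows of this length, 24.6% held GAGGAA, 4.7% TGAGTCA and 9.98% TTGCNNAA on either strand, so the first is a common match. A match is a run of letters and not a measured binding site.

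Itgax, the CD11c gene, rose with time in the cells sorted as CD11c negative. In recruited macrophages it was 306, 201 and 148 CPM on day 3, 313, 288 and 305 on day 6, 454, 579 and 857 on day 9, and 1263, 1317 and 1347 on day 12. The 3 libraries of day 9 were above those of day 6, and those of day 12 above those of day 9. Against day 3, the log2 ratio was 0.47 ± 0.20 (SE) on day 6 (adjusted p = 0.0808), 1.53 ± 0.21 on day 9 (adjusted p = 4.06e-06) and 2.58 ± 0.21 on day 12 (5.99-fold, adjusted p = 2.69e-09, edgeR). Without recruited day 3 replicate 1, the day 6 ratio was 0.79 (adjusted p = 0.00349).

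In resident macrophages Itgax was 1698, 1895 and 1855 CPM untreated and 1615, 1212 and 1297 on day 3. It was 2087, 2162 and 2128 CPM on day 6, 2093, 1765 and 2349 on day 9, and 2322, 2186 and 2305 on day 12. All day 3 libraries lay below the untreated ones and all day 6 and day 12 libraries above them, but no day passed the test: the log2 ratio to day 0 was -0.40 on day 3 (95% interval -0.82 to 0.01, adjusted p = 0.153) and 0.32 on day 12 (-0.09 to 0.74, adjusted p = 0.597). With only the 2 compared groups fitted, the day 3 ratio was -0.41 (adjusted p = 0.0357).

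The sort was made on the CD11c and CD11b proteins, so the difference between the populations in Itgax and Itgam is a description and was not tested. The recruited level of Itgax was 15.9% of the resident level on day 3, 14.2% on day 6, 30.4% on day 9 and 57.6% on day 12. On each day the 2 populations did not overlap. Across days they did: the recruited day 12 libraries (1263 to 1347 CPM) lay inside the range of the resident day 3 libraries (1212 to 1615 CPM). Of the 12 resident macrophage markers, 11 had a lower day 12 share than Itgax, from 7.98% for Car4 to 56.1% for the nuclear receptor gene Pparg, with 11.9% for Siglecf and 12.7% for the scavenger receptor gene Marco. Fabp5 was at 183%, and the median of the 12 was 23.2%. The markers summed to 3196 to 10625 CPM in recruited day 12 libraries and to 2772 to 3795 CPM on day 3. Chil3 was the most abundant of them, with recruited means of 2849 CPM on day 3 and 5404 CPM on day 12. Between the same days the recruited mean of Siglecf went from 5.31 to 61.8 CPM, Mrc1 from 48 to 862 and Ear2 from 50.2 to 592. Marco had a lower mean on day 12 (44.1 and 27.7 CPM), and all other listed markers had higher ones. Whether resident cells in the recruited gate had a part in the Itgax rise was not tested.

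Itgam, the CD11b gene, rose and then fell in the cells sorted as CD11b negative. Resident macrophages held 10.3, 5.05 and 5.35 CPM untreated, 352, 329 and 513 on day 3, and 64.3, 21.5 and 53.4 on day 6. All day 3 and day 6 libraries were above the untreated ones. The log2 ratio to day 0 was 5.84 ± 0.62 on day 3 (57.3-fold, adjusted p = 1.3e-06) and 2.74 ± 0.55 on day 6 (6.68-fold, adjusted p = 0.00478). On day 9 the libraries held 9.07, 43.7 and 10.2 CPM, and on day 12 16.8, 6.03 and 9.34. These overlapped the untreated range, with log2 ratios of 1.59 (adjusted p = 0.123) and 0.63 (adjusted p = 0.749), and the high day 9 value came from replicate 2, one of the libraries that stood apart. Without that replicate the day 9 ratio was 0.46 (adjusted p = 0.741), and without all 4 libraries that stood apart it was 0.46 (adjusted p = 0.62). Over the alternatives run it lay between 0.46 and 2.01, with adjusted p from 0.0522 to 0.741.

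Of the 12 monocyte markers, 10 were higher in all 3 resident day 3 libraries than in all untreated ones. The share of all genes that lay apart in this way was not computed. By the unlike measure of adjusted p under 0.05, 13.3% of all genes tested passed as higher. The monocyte gene Ly6c2 averaged 0.0838 CPM untreated and 50.1, 3.05, 0.823 and 0.383 CPM in resident cells on days 3, 6, 9 and 12, highest on day 3 as Itgam was. The coagulation factor gene F13a1 averaged 0.242 CPM untreated and then 12.5, 3.4, 2.42 and 16.2 CPM, and the chemokine receptor gene Ccr2 8.01 CPM and then 10.3, 29.2, 15.3 and 20.8 CPM, so neither had the course of Itgam over all days. On day 3 the resident level of Itgam was 13.2% of the recruited level, against 3.45% for Ly6c2, 1.73% for F13a1, 8.13% for Ccr2 and 3.24% for Itgb7, and 6 of the 12 monocyte markers had a higher share than Itgam. On day 6 the shares were 2.1% for Itgam, 1.11% for Ly6c2, 0.649% for F13a1, 41.5% for Ccr2 and 4.13% for Itgb7. On day 12 they were 1.05%, 1.5%, 4.4%, 17.4% and 3.35% in the same order. A higher share than that of Itgam was held by 10 of the 12 monocyte markers on day 6 and by all 12 on day 12. The monocyte list, of which Chil3 is the most abundant gene in resident cells, summed to 12168 to 14168 CPM in untreated and 23898 to 31751 CPM in resident day 3 libraries. Itgam is also a neutrophil gene, and 6 of the 14 neutrophil markers were higher in all resident day 3 libraries than in all untreated ones. For this count too, the share of all genes that lay apart was not computed. The calprotectin genes S100a9 and S100a8 averaged 0.133 and 3.32 CPM untreated and 46.4 and 59.5 CPM on day 3, and the protease gene Mmp9 0.128 and 23.5 CPM. The resident day 3 level of S100a9 was 45.4% of the recruited level. The list summed to 117 to 140 CPM untreated and 234 to 276 CPM on resident day 3, with Ly6g at 0 and 0.0853 CPM and the granule genes Elane and Mpo at 0 in both. Other listed genes had higher means on day 3: Retnlg (0.0428 and 2.39 CPM), Stfa2l1 (0 and 2.03), Camp (0 and 0.524), Ngp (0.0255 and 0.457), Csf3r (72.3 and 84) and Ltf (0.744 and 1.08). Cxcr2 (14.4 and 11.3 CPM) and Mmp8 (35.7 and 19.8) had lower ones. Whether recruited cells or neutrophils in the resident gate had a part in the Itgam rise was not tested.

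In recruited macrophages Itgam was 2248, 3033 and 3776 CPM on day 3, 2041, 2163 and 2416 on day 6, 1545, 2401 and 1475 on day 9, and 1440, 843 and 791 on day 12. The day 12 libraries all lay below those of day 3 and of day 6. The log2 ratio to day 3 was -0.45 on day 6 (adjusted p = 0.527), -0.74 on day 9 (adjusted p = 0.262) and -1.56 ± 0.51 on day 12 (adjusted p = 0.0186). The day 12 call was lost without recruited day 3 replicate 3 (-1.37, adjusted p = 0.0669), recruited day 12 replicate 2 (-1.43, 0.071) or recruited day 12 replicate 3 (-1.40, 0.0741). Without the 4 libraries that stood apart, the day 9 ratio was -0.98 (adjusted p = 0.0413).

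The recruited to resident log2 ratio of Itgam was 2.92 on day 3, 5.57 on day 6, 6.43 on day 9 and 6.57 on day 12. No resident library (at most 513 CPM) reached the lowest recruited one (791 CPM). Without resident day 9 replicate 2 the day 9 ratio was 7.56, and without all 4 libraries that stood apart it was 7.29.

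**Figure D1:**
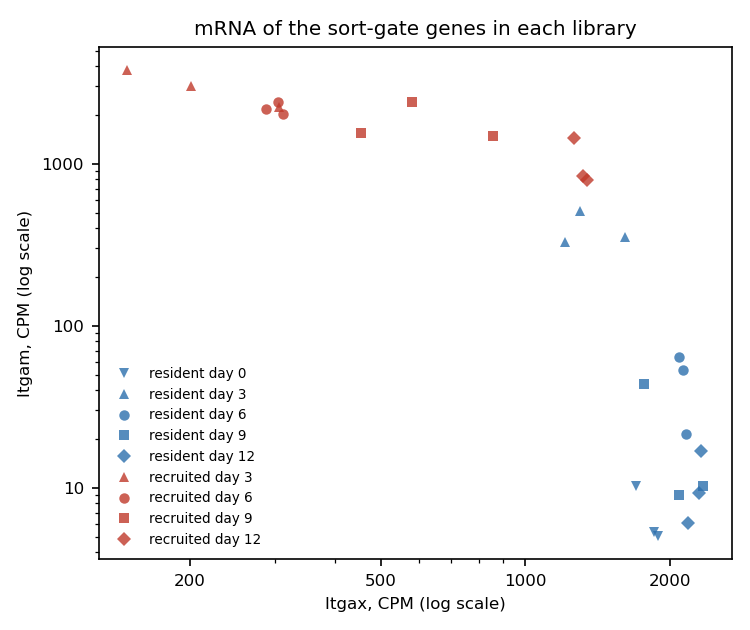
Itgax (x axis) against Itgam (y axis), both in CPM on log axes, 1 point per library, with colour for the population and marker shape for the day. Recruited day 12 libraries sit at 1263 to 1347 CPM of Itgax and resident day 3 libraries at 329 to 513 CPM of Itgam, while untreated resident libraries hold at most 10.3 CPM of Itgam.

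The alpha chains share the beta 2 chain, so their mRNA was compared per length of exon. Of the summed mRNA of Itgal, Itgam, Itgax and Itgad (which encodes CD11d), Itgax made up 75.9% ± 2.52 (SD, n = 3) in untreated resident cells and 63.3% ± 3.85 on day 3, and 73.8% to 75.8% on later days. Itgam was 0.285% ± 0.151 untreated and 17.6% ± 4.36 on day 3. In recruited cells the share of Itgam was 80% ± 6.96 on day 3, 77.1% ± 2.37 on day 6, 62.4% ± 9.86 on day 9 and 35.3% ± 9.23 on day 12. The share of Itgax there was 6.51% ± 3.53, 11.1% ± 0.818, 23.1% ± 7.63 and 48.1% ± 5.25. On day 12 Itgax was the more abundant of the 2 in recruited replicates 2 and 3 (50.5% and 51.7%, against 30.9% and 29% for Itgam), while replicate 1, which stood apart, had 42.1% and 45.9%. Itgal held 18.9% to 25% in resident groups and 11.8% to 16.6% in recruited groups. These are shares of mRNA, and surface protein was not measured here.

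**Figure D2:**
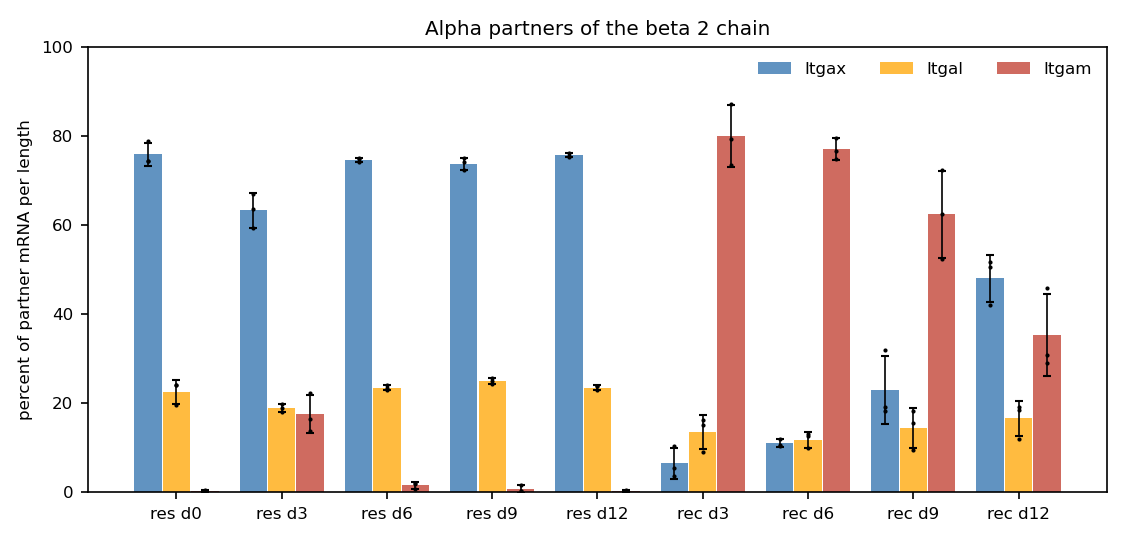
Percent of the summed per-length mRNA of Itgal, Itgam, Itgax and Itgad (y axis) held by the 3 main genes in each group (x axis, res for resident, rec for recruited, d for day), as mean bars with SD and 1 dot per library (n = 3). Itgam goes from 80% to 35.3% and Itgax from 6.51% to 48.1% between recruited days 3 and 12.

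Itgb2, the shared beta chain, did not pass the test between the populations. It ran from 2110 CPM (resident day 3) to 3793 CPM (resident day 12), and all neighbours in the order of the 9 group means overlapped. Per length of exon, Itgb2 was 764 to 1084 RPKM in group means, the highest of the 8 genes, and it made up 79.7% to 89.6% of the summed mRNA of Itgb1, Itgb2 and Itgb7. Averaged over days, the recruited to resident log2 ratio was -0.06 (95% interval -0.20 to 0.08, adjusted p = 0.489). On day 6 the ratio was -0.23 (adjusted p = 0.204), and with libraries paired by replicate number it was -0.24 (adjusted p = 0.0427). In recruited cells it was 2684, 2744 and 2419 CPM on day 3 and 3742, 3029 and 3088 on day 12. The day 12 libraries were all above those of day 3, with a log2 ratio of 0.33 ± 0.13 that did not pass the test (adjusted p = 0.0558), but did with library size scaling (0.41, adjusted p = 0.00292) and with DESeq2 (0.34, adjusted p = 0.0349).

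Itgal, the LFA-1 alpha chain, was lower in recruited than in resident cells from day 6 on. On day 3 recruited cells held 649, 754 and 519 CPM and resident cells 623, 516 and 541, and the groups overlapped (log2 ratio 0.19, 95% interval -0.14 to 0.53, adjusted p = 0.348). On day 6 they held 465, 463 and 391 CPM against 905, 951 and 892, with a log2 ratio of -1.06 ± 0.17 (adjusted p = 2.31e-05). The ratio was -0.87 ± 0.16 on day 9 (adjusted p = 0.000238) and -0.65 ± 0.16 on day 12 (adjusted p = 0.00457), with no overlap on any of the 3 days.

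The change of the Itgal population difference from day 3 to day 12 was itself tested and was -0.85 ± 0.23 on the log2 scale (adjusted p = 0.0175). It was the call for 1 of the 6 genes outside the gate, where 13.6% of all 13599 genes tested passed. The call was lost with library size scaling (-0.71, adjusted p = 0.0976), without recruited day 3 replicate 2 (-0.71, 0.0628) and without recruited day 12 replicate 1 (-0.67, 0.0526). Within recruited cells, Itgal fell by 0.54 on the log2 scale from day 3 to day 6 (adjusted p = 0.014), a call lost with library size scaling (-0.46, 0.0819), without recruited day 3 replicate 2 (-0.41, 0.0941) and without recruited day 6 replicate 3 (-0.47, 0.0648). The recruited ratio of Itgal to day 3 was -0.29 on day 9 (adjusted p = 0.176) and -0.06 on day 12 (adjusted p = 0.799). On days 3 and 12 Itgal averaged 641 and 614 CPM in recruited cells, and 560 and 964 CPM in resident cells. Its resident values on day 3 against 577, 842 and 821 CPM untreated gave a log2 ratio of -0.42 (adjusted p = 0.0691), and -0.57 (adjusted p = 0.0179) without the low untreated replicate 1. This ratio also passed with DESeq2 (-0.42, adjusted p = 0.0472) and with library numbers as a covariate (-0.41, 0.0258). Without the 4 libraries that stood apart it passed too (-0.43, adjusted p = 0.0222).

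Itgb7 differed most between the populations among the 6 genes outside the gate. Recruited cells held 241, 230 and 190 CPM on day 3, 146, 130 and 106 on day 6, 169, 116 and 104 on day 9, and 60.2, 99.3 and 101 on day 12. Resident cells held 11.2, 4.59 and 5.68 CPM on day 3 and at most 7.86 CPM on later days, so no resident library came near a recruited one. The log2 ratio averaged over days was 5.03 ± 0.18 (32.7-fold, adjusted p = 1.48e-15), and 4.94 ± 0.34, 4.60 ± 0.34, 5.69 ± 0.37 and 4.90 ± 0.36 on days 3, 6, 9 and 12. T cells also carry Itgb7, and 17 T and NK cell genes (15 tested) summed to 59.8 to 194 CPM in recruited libraries and 88.6 to 304 CPM in resident ones. The largest part was Il7r in recruited groups (60.3 to 76.6 CPM) and Cd2 in resident groups (99.9 to 259 CPM). In recruited groups the T cell receptor complex genes Trac and Cd3e averaged 0.383 to 1.09 CPM and 0.424 to 1.03 CPM, and Itgb7 86.9 to 221 CPM. Outside Il7r and Cd2, the highest recruited group means of the list were 3.83 CPM for Cd4, 3.24 for Lck and 2.73 for Cd247. Levels of different genes do not measure cell numbers. Whether T or NK cells had a part in the Itgb7 values was not tested.

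Itgb7 changed with time in both populations. Untreated resident cells held 0.771, 0.613 and 0.755 CPM, below each later resident library. The log2 ratio to day 0 was 3.31 ± 0.44 on day 3 (9.91-fold, adjusted p = 1.56e-05) and 2.85 ± 0.45 on day 6 (7.22-fold, adjusted p = 0.000498). On days 9 and 12 it was 1.80 ± 0.48 (adjusted p = 0.0415) and 2.01 ± 0.48 (adjusted p = 0.035). These late calls were lost without the 4 libraries that stood apart (1.94, adjusted p = 0.0556, and 2.09, 0.0816). They were also lost without any 1 untreated library, without resident day 9 replicate 1 or 3 and without any 1 resident day 12 library, with adjusted p from 0.0614 to 0.177. As with Itgam, Ly6c2 and F13a1 were higher in resident day 3 libraries than untreated (50.1 against 0.0838 CPM and 12.5 against 0.242 CPM), and their part in the Itgb7 values was not tested.

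In recruited cells Itgb7 fell by 1.34 ± 0.29 on the log2 scale from day 3 to day 12 (adjusted p = 0.000781), and the day 12 libraries did not overlap those of day 3. The ratio was -0.79 on day 6 (adjusted p = 0.0363) and -0.77 on day 9 (adjusted p = 0.0385). Each of these 2 calls was lost under 7 of 15 alternatives, among them library size scaling (-0.71, adjusted p = 0.0919, and -0.63, 0.122) and no filter on low counts (-0.79, 0.079, and -0.75, 0.089). The day 9 call was also lost without the 4 libraries that stood apart (-0.68, adjusted p = 0.0827). The libraries whose loss ended the day 6 call were recruited day 3 replicates 1 and 2 and each of the 3 day 6 libraries (adjusted p from 0.0529 to 0.126). For day 9 they were recruited day 3 replicates 1 and 2 and day 9 replicates 2 and 3 (adjusted p from 0.0924 to 0.148). Per length of exon, Itgb7 went from 79.6 ± 9.7 RPKM (SD, n = 3) on day 3 to 31.4 ± 8.35 on day 12, and from 7.39% to 2.54% of the summed mRNA of the 3 beta chains.

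Itga4 was higher in recruited cells on each day. On day 3 they held 292, 331 and 311 CPM against 104, 100 and 101 in resident cells, and on day 12 451, 407 and 396 against 175, 179 and 151. The populations did not overlap on any day, and the log2 ratio averaged over days was 1.32 ± 0.06 (2.49-fold, adjusted p = 2.66e-14). In resident cells Itga4 fell by 0.61 ± 0.12 from day 0 (140, 151 and 176 CPM) to day 3 on the log2 scale (adjusted p = 0.000867) and all day 3 libraries were below the untreated ones. On day 6 it was 210, 185 and 185 CPM, above the untreated libraries but with a ratio of 0.31 that did not pass (adjusted p = 0.14).

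In recruited cells Itga4 rose by 0.42 ± 0.12 from day 3 to day 12 on the log2 scale (adjusted p = 0.00757). On day 6 (486, 385 and 337 CPM) and day 9 (426, 362 and 415 CPM) the ratio to day 3 was 0.37 each (adjusted p = 0.0224 and 0.0215). Both were lost with only the compared groups fitted (adjusted p = 0.0905 and 0.102) and without recruited day 3 replicate 1 (0.08 and 0.0773) or 3 (0.0581 and 0.0536). The day 6 call was also lost without recruited day 6 replicate 1 (0.24, adjusted p = 0.152), and the day 9 call without recruited day 9 replicate 1 (0.32, 0.0747) or 3 (0.34, 0.0667). Its antisense neighbour Cerkl was not separated from it by a known strand setting.

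Itgb1, the common beta chain of alpha 4 and alpha 6, was 466 to 508 CPM in resident group means and 567 to 651 CPM in recruited ones. The log2 ratio averaged over days was 0.32 ± 0.05 (1.25-fold, adjusted p = 1.6e-05). By day it was 0.28 (adjusted p = 0.0346), 0.35 (0.0145), 0.31 (0.0309) and 0.36 (0.0153), with no overlap on any day. The single-day calls were not firm. The day 3 call was lost without any 1 of the 3 resident libraries or without recruited replicate 1 or 2 (adjusted p from 0.0531 to 0.126), with library size scaling (0.209), without a filter (0.0873) and with only those groups fitted (0.111). The day 6 call was lost without resident replicate 1 (0.0534). The day 9 call was lost without resident replicate 1 or 3 or recruited replicate 2 or 3 (0.0721 to 0.179), without a filter (0.0579) and with only those groups fitted (0.18). The day 12 call was lost without resident replicate 2 or 3 or recruited replicate 1 (0.0574 to 0.0676) and with only those groups fitted (0.0637). No day passed against the first day of its population: the log2 ratio to resident day 0 lay between -0.06 and 0.06, and to recruited day 3 between 0.09 and 0.20, with adjusted p of 0.149 or more, although recruited day 12 passed with library size scaling (0.28, adjusted p = 0.0321).

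Itga6, the laminin receptor chain, varied widely between libraries of 1 recruited group. It was 25.4, 23.3 and 48.5 CPM on day 3, 43.3, 33.5 and 114 on day 6, 14.1, 119 and 47.3 on day 9, and 71.8, 20.6 and 21.2 on day 12. On each day 1 library was high. The same library was the highest of its day in Pf4, a chemokine gene, with 116, 92.7, 108 and 24.1 CPM, and in Spp1, with 192, 3111, 12941 and 13431 CPM. It was also the highest in the complement gene C1qa on days 6, 9 and 12 (731, 1527 and 1238 CPM), while on day 3 C1qa was 347 in replicate 1 and 335 in replicate 3. Itgam too was highest in this library on each day, with 3776, 2416, 2401 and 1440 CPM. Itgav and Itgb5 were highest in it on days 6, 9 and 12. On day 3 they were not (Itgav 100 CPM against 115 and 115, Itgb5 261 CPM against 273 in replicate 1). Pf4 is also in a list of 10 platelet genes. The highest recruited group means of the others were 3.19 CPM for Treml1, 2.87 for Gp1ba, 2.11 for Itga2b, 2.05 for Gp6 and 1.41 for Ppbp. They were 0.809 for Tubb1, 0.141 for Gp5, 0.116 for Gp9 and 0.045 for Gp1bb. These are group means and not values of the single high libraries. The part of these libraries' other differences in the Itga6 values was not tested.

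Resident cells held 32.6, 39.7 and 43.3 CPM of Itga6 untreated and 52.7, 85.7 and 72.2 on day 3. The day 3 libraries were all above the untreated ones, with a log2 ratio of 0.86 (95% interval -0.37 to 2.09, adjusted p = 0.308) in the fit of all 27 libraries and 0.85 (adjusted p = 0.00882) with those 2 groups alone. On day 6 the libraries held 27.1, 29.3 and 31.2 CPM, all below the untreated ones (-0.40, adjusted p = 0.791, and -0.43, adjusted p = 0.0497 with those 2 groups alone). Between the populations the average ratio was 0.32 (95% interval -0.29 to 0.94, adjusted p = 0.362), and -0.03 (adjusted p = 0.931) without the 4 libraries that stood apart. It was -1.11 on day 3 (adjusted p = 0.134), where recruited libraries were all below resident ones, and -1.13 (adjusted p = 0.0488) without the 4 libraries that stood apart. With library numbers as a covariate the day 3 ratio was -1.15 (adjusted p = 0.0261), and with those groups alone -1.15 (adjusted p = 0.0247). The day 6 ratio was 1.13 (adjusted p = 0.154). With the share of reads outside genes as a covariate, the ratio was 1.91 on day 6 (adjusted p = 0.000683), 1.02 on day 9 (0.0318) and 0.67 on average (0.005). That share was 26.5% in recruited day 6 replicate 2, the lowest library of its group in Itga6 (33.5 CPM), and at most 13% in every other library. A fit with this covariate and without that library was not run.

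**Figure D3:**
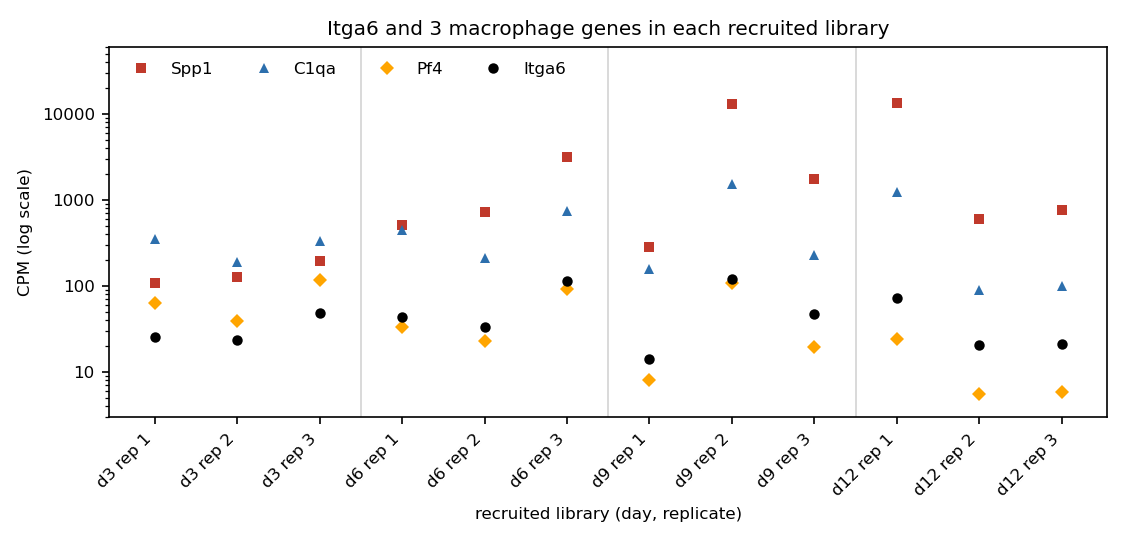
CPM on a log axis (y) of Itga6, Pf4, C1qa and Spp1 in each of the 12 recruited libraries (x axis, by day and replicate), 1 point per library. Day 9 replicate 2 (119 CPM of Itga6) and day 6 replicate 3 (114 CPM) are the highest libraries in Itga6.

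**Figure D4:**
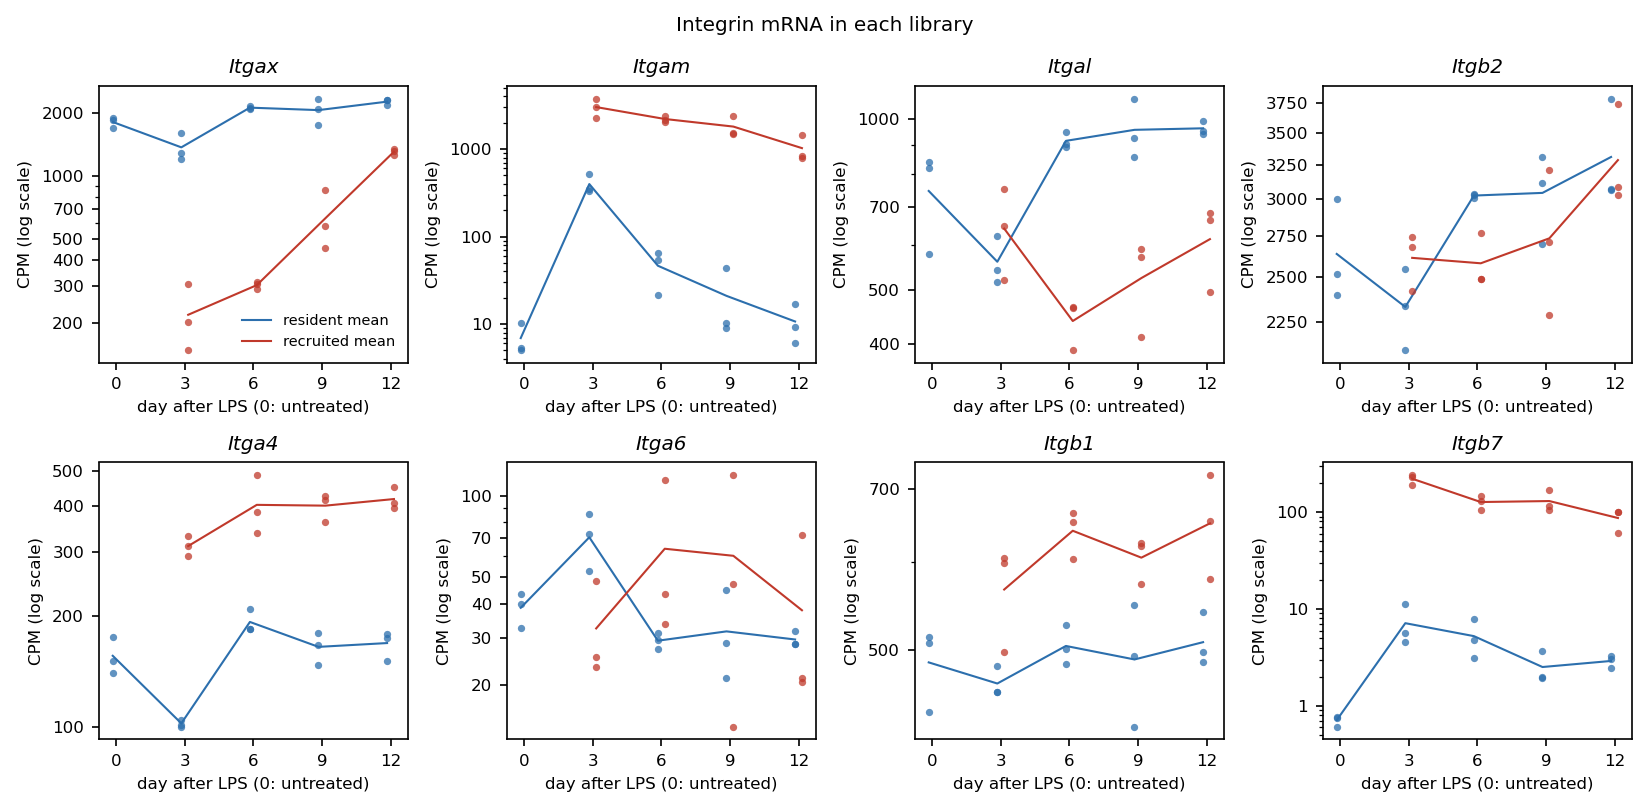
CPM on a log axis (y) of each of the 8 genes against day (x axis, day 0 untreated), 1 point per library (n = 3 per group), with lines through the group means, resident in blue and recruited in red. The axes differ between panels, and Itgb7 shows the widest gap among genes outside the gate, with resident libraries at 11.2 CPM or less and recruited ones at 60.2 CPM or more.

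The number of these genes that passed can be set against all 13599 genes tested. Averaged over days, 4 of the 6 genes outside the gate passed in the recruited to resident comparison, 3 upward and 1 downward, where 60.3% of all genes passed (30.3% higher and 30.0% lower). By day, 3 of 6 passed on day 3, where 46.6% of all genes did, and 4 of 6 on days 6, 9 and 12, where 35.0%, 32.0% and 27.3% did. In resident cells against day 0, 3 of the 8 passed on day 3, 2 higher and 1 lower, with 23.8% of all genes passing (13.3% higher and 10.5% lower). On days 6, 9 and 12, 2, 1 and 1 of 8 passed, with 6.42%, 3.49% and 1.30% of all genes. In recruited cells against day 3, 3 of 8 passed on day 6 (31.9% of all genes), 3 on day 9 (36.3%) and 4 on day 12, 2 higher and 2 lower (39.3%, with 19.8% higher and 19.5% lower). The 3 untreated libraries serve all 4 resident comparisons, and the 3 libraries of recruited day 3 serve all recruited ones.

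**Figure D5:**
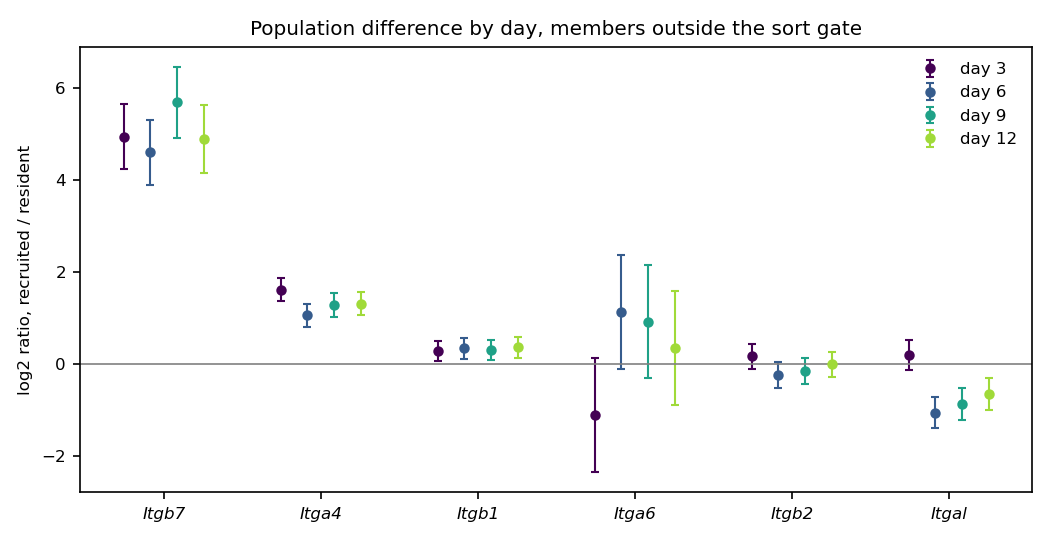
Log2 ratio of recruited to resident cells (y axis) with its 95% interval for the 6 genes outside the sort gate (x axis) on days 3, 6, 9 and 12. Itgb7 lies between 4.60 and 5.69, Itga4 between 1.06 and 1.61, and Itgal goes from 0.19 on day 3 to -1.06 on day 6.

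Among 18 other integrin subunit genes, 12 were tested, and 7 were higher and 1 lower in recruited cells averaged over days (median log2 ratio 0.53, all genes 0.02). That is 8 of 12, where 60.3% of all genes tested passed. Itga9, an alpha chain that pairs with beta 1, averaged 4.88 CPM in recruited and 0.153 CPM in resident libraries (log2 ratio 5.61 ± 0.52, adjusted p = 9.36e-09). Itgad, the CD11d chain, was the 1 lower gene, at 0.832 against 7.3 CPM (-3.36 ± 0.29, adjusted p = 9.66e-10). In resident cells on day 3, 3 of the 12 rose and 1 fell (all genes 23.8%): Itga5, the fibronectin receptor chain, went from 174 to 354 CPM (1.02 ± 0.19, adjusted p = 0.000482), Itga1, a collagen receptor chain, from 11.9 to 31.1 CPM (1.39, adjusted p = 3.75e-05) and Itgad from 26.3 to 3.25 CPM (-3.01, adjusted p = 8.04e-05). Itgb3 had 45 counts over the 3 day 3 libraries and 1 untreated, a ratio of 43.4 (exact 95% interval 7.4 to 1751, counting error only). From recruited day 3 to day 12, 2 rose and 4 fell (all genes 39.3%). Itgad rose from 0.168 to 1.63 CPM and Itga9 fell from 10.2 to 2.15 CPM (adjusted p = 0.00192 and 0.00936), and Itgb8 had 51 counts on day 3 and 1 on day 12, a ratio of 48.4 (8.3 to 1948). Itgb3 fell from 1.39 to 0.325 CPM (adjusted p = 0.0105), a call lost without recruited day 3 replicate 2 (0.0546) or day 12 replicate 2 (0.0661).

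Of 34 genes for integrin activation and adaptors, 30 were tested, and 12 were higher and 13 lower in recruited cells averaged over days (median log2 ratio 0.06), 25 of 30 beside 60.3% of all genes tested. Fyb, an adaptor in integrin activation, averaged 210 against 14.8 CPM (3.98 ± 0.19, adjusted p = 1.68e-13), the kinase gene Src 86.1 against 7.05 CPM (3.66, adjusted p = 1.63e-12) and Rasgrp2, an activator of the GTPase Rap1, 16.4 against 2.21 CPM (2.91, adjusted p = 1.38e-15). Lims2, which encodes the adhesion protein PINCH-2, was lower, 0.169 against 1.87 CPM (-3.37, adjusted p = 1.69e-07). In resident cells on day 3, 6 rose and 2 fell (all genes 23.8%). The count of 8 was 13 with library numbers as a covariate or with only those groups fitted, and 5 without resident day 3 replicate 3. Fyb rose from 1.71 to 37.2 CPM, Src from 2.87 to 10.9 and the vinculin gene Vcl from 5.05 to 14.5 CPM (adjusted p = 2.3e-07, 0.0022 and 0.00406). From recruited day 3 to day 12, 6 rose and 13 fell beside 39.3% of all genes (median -0.27, all genes 0.02), 12 in all with only those groups fitted. Fyb fell from 446 to 92.9 CPM, while the talin gene Tln2 rose from 0.227 to 3.27 and Cytip, a cytohesin partner, from 40.2 to 170 CPM (adjusted p = 1.77e-05, 3.46e-05 and 0.00248).

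Of 22 ligand genes, 11 were tested, and 4 were higher and 2 lower in recruited cells averaged over days (median log2 ratio 0.64), 6 of 11 beside 60.3% of all genes tested. The fibronectin gene Fn1 averaged 14117 against 6293 CPM (1.16 ± 0.16, adjusted p = 1.91e-06). In resident cells on day 3, 5 rose and none fell (23.8% of all genes passed), with a median of 0.60 against 0.00 for all genes, and 3 passed without untreated replicate 3 or without resident day 3 replicate 1 or 3. The complement gene C3, source of iC3b, went from 449 to 2870 CPM (2.68 ± 0.19, adjusted p = 9.22e-10) and Icam1, the ligand of LFA-1 and Mac-1, from 117 to 292 CPM (1.32 ± 0.23, adjusted p = 0.000278). Vcam1, the ligand of alpha 4 beta 1, went from 0.323 to 2.36 CPM (adjusted p = 0.0236), a call lost without untreated replicate 2 (0.0955) or 3 (0.0879) or resident day 3 replicate 1 (0.0577) or 3 (0.064). Thy1, a Mac-1 ligand, went from 0.132 to 1.28 CPM (adjusted p = 0.00585, and 0.0688 without resident day 3 replicate 1). From recruited day 3 to day 12, 4 rose and 3 fell (all genes 39.3%). C3 fell from 3874 to 657 CPM, Icam1 from 342 to 93.7 and Vcam1 from 9.99 to 1.33 (adjusted p = 4.83e-10, 1.56e-06 and 0.00302). Spp1 was 143 and 4927 CPM (5.11 ± 1.49, adjusted p = 0.00985), and 2.27 (adjusted p = 0.162) without recruited day 12 replicate 1. With only those groups fitted it was 5.12 (adjusted p = 0.0586).

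Patterns over the 9 group means of log2 CPM were compared with all other tested genes by Pearson's r, as a description, since the 9 points share libraries and many genes follow the populations. The 3 genes most like Itgam were Thbs1 (r = 0.996), Htra1 (0.993) and Dhdh (0.991), and those most like Itgb7 included C3ar1 (0.997) and Bin1 (0.997). Itgax was most like Evi5l (0.990), Megf9 (0.989) and the unnamed ENSMUSG00000096334 (0.987), and Itga4 most like Arhgap22 (0.990), Gm9733 (0.986) and Zfp40 (0.985). Itgal was nearest to Btbd9 (0.983), Map3k11 (0.976) and Strn (0.971), Itgb1 to Tcf4 (0.986), Pura (0.985) and Etl4 (0.985), Itgb2 to Tns4 (0.976), E430018J23Rik (0.939) and Zfp574 (0.918), and Itga6 to Wee1 (0.936), Tvp23a (0.936) and Anapc15 (0.913). Over the 12 recruited libraries alone, Itgax was most like Elovl6 (0.959), Socs5 (0.957) and Ccbe1 (0.954). Over the 15 resident libraries, Itgam was most like Adam8 (0.983), Saa3 (0.983) and Cd38 (0.979).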

How the data were processed

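Polyadenylated RNA of 27 libraries was sequenced after a modified stranded KAPA kit on an Ion Proton, per the labels' protocols. The authors deposited raw counts per Ensembl gene, 1 column per library, and a second table of counts of unassigned reads, which was used only for the share of reads outside genes. These were 6.77% to 26.5% of the reads that mapped to a gene, to several or to none (median 9.7%). The submitters' processing notes name mm10 as the build and, with no role stated, R 3.1.0, DESeq2 1.4.5, HTSeq 0.6.0 and STAR 2.4.0a. The sources used here give neither the strand option nor the annotation release. Of 38124 genes, 36345 had a symbol in GENCODE M21.

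The filter filterByExpr (minimum count 10, minimum total 15) left 13599 genes. One edgeR 4.0.16 fit in R 4.3.3 held all 27 libraries with 1 mean per group (TMM, robust quasi-likelihood, two-sided F test, 18 residual degrees of freedom, Benjamini-Hochberg over all genes tested, threshold 0.05), with DESeq2 1.42.0 as an alternative. An exact permutation test of 3 against 3 cannot go below p = 0.1. CPM uses TMM library sizes, and RPKM divides CPM by exon length. The edgeR fit was tested on simulated counts, for the comparison of resident day 3 with day 0 only.

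The members and gene lists were chosen with earlier results of these data known. All 8 members are named. From each context list, up to 4 genes per comparison were named by size of change among those that passed with no overlap between libraries (for the average, on each day), and 3 genes most like each member by r. Of the genes so named, 2 are not reported here. Same-day resident and recruited libraries of equal number deviated together (r across genes 0.166 to 0.518 in 12 pairs, each closest to its own number), so the numbers pair them within a day, from the data and not the labels; the fit with a replicate block is given where it changes a call. Resident libraries of days 3 to 12 had r from -0.147 to 0.232 with the day 0 library of equal number. Unequal numbers and other pairs of days were not compared, so these values do not settle whether the numbers pair days.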

Additional observations from a re-analysis of the deposited data

Results flagged for a closer look

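The population difference of Itgal was not the same on day 3 and day 12. Its log2 ratio of recruited to resident cells was 0.19 on day 3 and -0.65 on day 12, a change of -0.85 ± 0.23 that passed the test of the change itself (edgeR, adjusted p = 0.0175, n = 3 libraries per group). Both groups of day 3 overlapped, and on day 12 all 3 recruited libraries were below all 3 resident ones. The recruited mean was 641 CPM on day 3 and 614 CPM on day 12 (log2 ratio -0.06, adjusted p = 0.799). The resident mean was 560 CPM on day 3 and 964 CPM on day 12. Over 21 alternatives the change of the population difference lay between -0.98 and -0.67, and 3 of them ended the call (adjusted p from 0.0526 to 0.0976). The cause was not tested.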

How the results depend on the processing

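Of 1752 values of the members' log2 ratios under alternative settings, 1657 were unchanged, 69 lost their call and 21 gained one. Unchanged means the same call or, for the untested sort genes between the populations, a shift smaller than the spread between replicates. The other 5 values, of these sort genes, moved by more than that spread. No called ratio changed its direction under the settings run, and 56 ratios called under neither setting changed sign. The calls of Itgb7, Itga4 and Itgal averaged over days, of Itgam and Itgb7 in resident cells on day 3, and of Itgax in recruited cells on days 9 and 12 held under all alternatives run. With only the compared groups fitted, 5 members passed in resident cells on day 3 in place of 3. For resident day 9, 0 passed with library size scaling, no filter, only the compared groups, or without the libraries numbered 12 to 18 (chosen after seeing the data), and for resident day 12, 0 with library size scaling, no filter or without those libraries. Leaving out 1 library at a time gave 0 to 1 members on resident day 9, 0 on resident day 12 (0 to 0), 1 to 3 on recruited day 6 (2 in between), 1 to 3 on recruited day 9 and 0 to 1 for the change of the population difference. Library size scaling gave 1 on recruited day 6 and 0 for that change. It also moved the median log2 ratio of all genes to 0.151 on recruited day 9, 0.109 on day 12 and 0.142 for the change of the difference. The fit with a replicate block changed 1 call, Itgb2 between the populations on day 6 (-0.24, adjusted p = 0.0427), and no other. By Spearman correlation, at most 1 of the 3 genes most like Itgax, Itgam, Itgb2, Itga4, Itga6, Itgb1 and Itgb7 stayed among the nearest. With the longest transcript as gene length, the share of Itgam in recruited day 6 cells was 74.7%. The cause of these differences was not tested beyond what each setting changes. Depth limits the untreated Itgb7 values, which rest on few reads.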
